A study of Homo sapiens with 6 samples.

Results

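Nascent transcription in SH-SY5Y cells exposed to MPP+ at 0.1 mM for 0.5 h was compared with that in untreated SH-SY5Y cells, across all genes. The comparison used 4 of the 6 libraries of the study, chosen by their labels: 2 untreated and 2 exposed for 0.5 h. The remaining 2 libraries, from cells exposed to the same dose for 24 h, entered the model only to estimate the spread between libraries and to place the 0.5 h values. SH-SY5Y is a human neuroblastoma line, grown as a monolayer. All groups were this 1 line, with no genetic change named in the labels, and the untreated cells are described only as not treated, with no mention of a vehicle. Separate cultures are not named as the origin of the 2 replicates of a group. Every p-value therefore measures the spread among libraries alone, and that spread may be technical.

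MPP+ is the active product of the toxin MPTP, which causes parkinsonism. It is carried into cells by monoamine transporters, gathers in mitochondria and blocks complex I, the first proton pump of the respiratory chain. Human mitochondrial DNA (mtDNA) is a small circle that encodes core subunits of complexes I, III, IV and V together with the rRNAs and tRNAs of the mitochondrial ribosome. A single-subunit polymerase, POLRMT, copies each strand into one long precursor from promoters in the control region, with the factors TFAM and TFB2M at the start and TEFM during elongation, and the precursor is then cut at the tRNAs. Every other mitochondrial protein is made from nuclear genes by RNA polymerase II. PRO-seq lets polymerases that are already engaged extend their RNA in isolated nuclei and sequences the labelled product, so it reports transcription under way and not the amount of stable RNA. mtDNA is seen in such libraries only through mitochondria that accompany the nuclei. All 6 libraries are listed with the same number of cells. Levels are relative to the counts of each library, so they do not measure the number of cells or the RNA made per cell. In material from whole cultures, a change in the number of mitochondria and a change in RNA made per mitochondrion cannot be told apart.

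The untreated libraries held 7044839 and 8381006 counts assigned to genes, and the 0.5 h libraries held 11707612 and 8714604. The deposited tables list 67051 gene identifiers, of which 23133 passed a filter on low counts: 33 of the 37 mtDNA genes, 20 of 417 nuclear copies of mtDNA genes, and 23080 other nuclear genes. Levels are given as CPM, counts of a gene scaled to a library of common size. Differences are log2 fold changes of 0.5 h over untreated with their standard errors (SE), so that -1 is a halving, and a gene was called when its adjusted p in the edgeR quasi-likelihood test fell below 0.05. Intervals on shares cover counting error only.

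The line label was set against markers of cell types. Of 16 genes that mark adrenergic neuroblasts, 15 were tested. GATA3 had 1342 and 1135 CPM in the untreated libraries and 1289 and 1085 CPM at 0.5 h. Among these markers TBX2 had a count of 0 in all 4 libraries. DBH, the enzyme that makes noradrenaline, had 230, 252, 205 and 232 CPM in that order. TH, the first enzyme of catecholamine synthesis, had only 2 to 6 counts in each library and was not tested. Of the carriers of MPP+, the noradrenaline transporter gene SLC6A2 was transcribed at 248 and 195 CPM in untreated cells and at 235 and 222 CPM at 0.5 h, whereas the dopamine transporter gene SLC6A3 lay between 0.69 and 1.59 CPM. Of 17 markers of the mesenchymal state of neuroblastoma 16 were tested, and they summed to between 1568 and 2080 CPM in the 4 libraries, most of it on TWIST1, which had 1759 and 1290 CPM in untreated cells and 1696 and 1285 CPM at 0.5 h. Of 15 neurosecretory markers 14 were tested, and the list summed to between 2106 and 2465 CPM in the 4 libraries. Among them SNAP25 had a count of 0 in each. The 12 leukocyte markers summed to between 61.2 and 69.4 CPM in the 4 libraries, most of it on CSF1R. CD68 was among the markers at 0 in each library. The 10 epithelial markers summed to between 216 and 258 CPM, most of it on EPCAM, with KRT5 at 0 in each library. The 8 endothelial markers summed to between 62.3 and 76.2 CPM, with 0 called and a median log2 fold change of -0.18. A count of 0 does not show that a gene was silent, since 13 of 77 mitochondrial ribosomal protein genes and 4 of 37 nuclear complex I genes also had a count of 0 in all 4 libraries.

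Transcription of mtDNA was lower after 0.5 h of MPP+ in every class of mtDNA gene. The 37 mtDNA genes took 0.144% (95% Clopper-Pearson interval 0.141% to 0.147%) and 0.149% (0.146% to 0.151%) of assigned counts in the untreated libraries. They took 0.0275% (0.0266% to 0.0285%) and 0.0372% (0.0359% to 0.0385%) at 0.5 h. Both exposed libraries thus lay far below both untreated ones, a 4.52-fold lower mean share. An exact two-sided permutation test of the group means gave p = 0.333, the smallest value that 2 libraries against 2 allow. In the fit across all genes, 17 genes were called lower, which is 0.0735% of the genes tested, and 0 were called higher. They comprised 15 mtDNA genes, namely all 13 mRNA genes and both rRNA genes, and the nuclear copies MTRNR2L8 and MTRNR2L1. Without 0.5 h replicate 1 the number of calls was 9, all on mtDNA. All 15 rRNA and mRNA genes were lower in both 0.5 h libraries than in both untreated ones, as were 14.4% of all tested genes. These 15 genes reached the count filter in exposed libraries too, with those of 24 h included. MT-ATP8, with 12 and 10 counts at 0.5 h, did so only through the 24 h libraries.

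**Figure D1:**
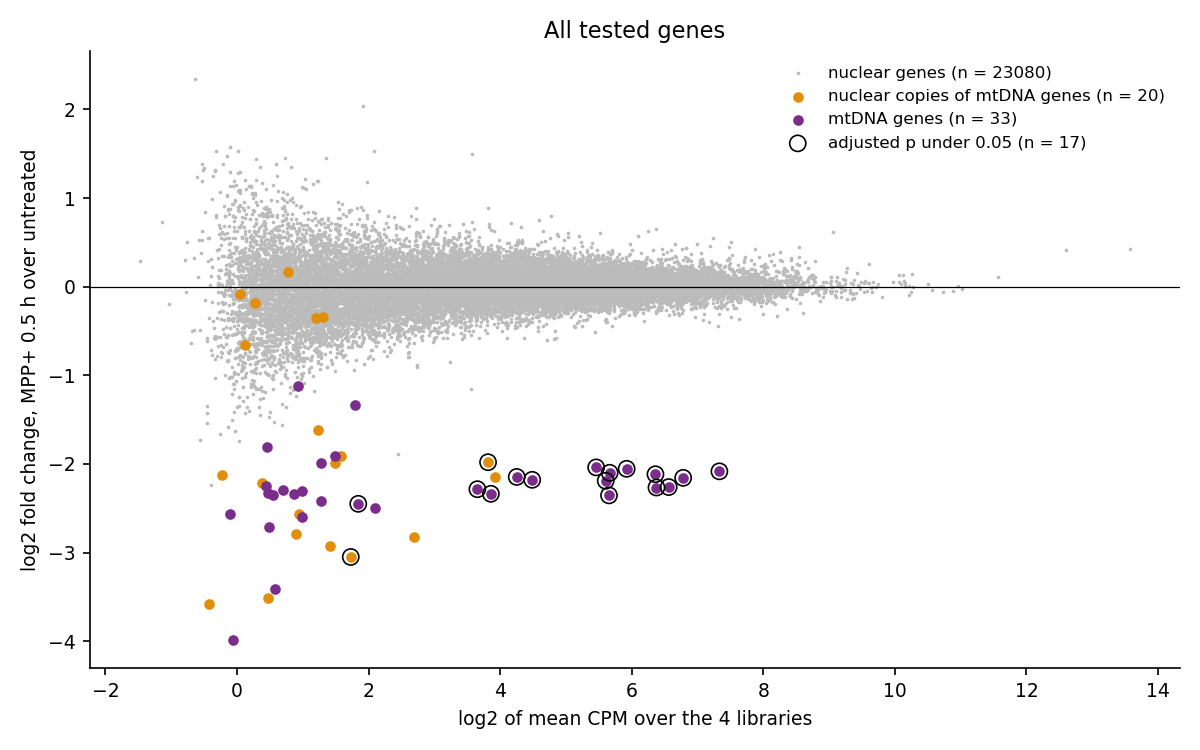
Log2 fold change of 0.5 h MPP+ over untreated (vertical axis) against the log2 of the mean CPM over the 4 libraries (horizontal axis) for every tested gene. The 33 mtDNA genes (purple) lie between -3.98 and -1.12, the 20 nuclear copies of mtDNA genes (orange) fall into a low set and a set near 0, and rings mark the 17 called genes. Both ends of the purple range are tRNA genes with few counts, and the rRNA and mRNA genes lie between -2.45 and -2.04. The count filter was reached only through the untreated libraries by 15 of the tRNA genes and 8 of the copies, which favours low values in them.

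Both rRNA genes lie directly downstream of the heavy-strand promoter. MT-RNR2 (chrM:1671-3229, plus strand), the 16S rRNA of the large mitochondrial subunit, had 288 and 233 CPM in untreated cells and 54.7 and 68.5 CPM at 0.5 h. It fell by 2.08 on the log2 scale (log2 fold change -2.08, SE 0.15, adjusted p = 0.00112 in the edgeR test), a 4.24-fold lower level. MT-RNR1 (chrM:648-1601), the 12S rRNA of the small subunit, had 90.8 and 73.5 CPM in untreated cells and 16.6 and 21.8 CPM at 0.5 h, which is a log2 change by -2.10 (SE 0.16, edgeR adjusted p = 0.0012).

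The mtDNA-encoded complex I subunits, whose assembled product is the target of MPP+, fell together. MT-ND1, which forms part of the quinone channel, had 124 and 142 CPM in untreated cells and 23.9 and 38.2 CPM at 0.5 h (log2 fold change -2.12). MT-ND2 had 72.9 and 68.6 CPM against 16.7 and 17.7 CPM, the smallest fall among the mRNAs at -2.04 (SE 0.13). MT-ND5, a proton-pumping subunit encoded far from the promoter, had 161 and 198 CPM against 33.7 and 47.3 CPM (log2 fold change -2.16). MT-ND4 changed by -2.27, MT-ND4L by -2.34 and MT-ND3 by -2.15 on the log2 scale. In each of these genes both exposed libraries lay well under both untreated ones, and replicate 1 was the lower of the exposed pair in each of them.

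The subunits of complexes III, IV and V encoded by mtDNA showed falls of the same size. MT-CO1, the catalytic subunit of cytochrome c oxidase, had 165 and 147 CPM in untreated cells and 30.5 and 34.8 CPM at 0.5 h, a 4.79-fold lower level (log2 fold change -2.26, SE 0.18, edgeR adjusted p = 0.00172). MT-CO2, which takes electrons from cytochrome c, changed by -2.35 (SE 0.24), and MT-CO3 by -2.19 (SE 0.19). MT-CYB, the only complex III subunit made in mitochondria, had 97.3 and 98.0 CPM against 20.3 and 27.0 CPM (log2 fold change -2.05). For ATP synthase, MT-ATP6 changed by -2.18 (SE 0.24). MT-ATP8, whose reading frame overlaps that of MT-ATP6, had 5.77 and 6.33 CPM against 1.06 and 1.15 CPM. Its change of -2.45 (SE 0.31) was the farthest from 0 among the mRNAs, and its interval from -3.15 to -1.75 includes the values of all the others. Reads from the overlap of the pair may be assigned to either gene.

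Over the 12 heavy-strand mRNAs the median was -2.18, a 4.55-fold lower level, with a range of -2.45 to -2.04. MT-ND6 (chrM:14149-14673, minus strand), a complex I subunit and the only mRNA made from the light-strand promoter, had 19.5 and 22.3 CPM in untreated cells and 4.403 and 4.14 CPM at 0.5 h. Its change by -2.28 on the log2 scale (SE 0.23, edgeR adjusted p = 0.0054) lies inside the range of the heavy-strand mRNAs. Whether counting used the strand of the reads is not given in the sources used here, and without strand, reads of MT-ND6 and of the opposite precursor cannot be told apart.

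**Figure D2:**
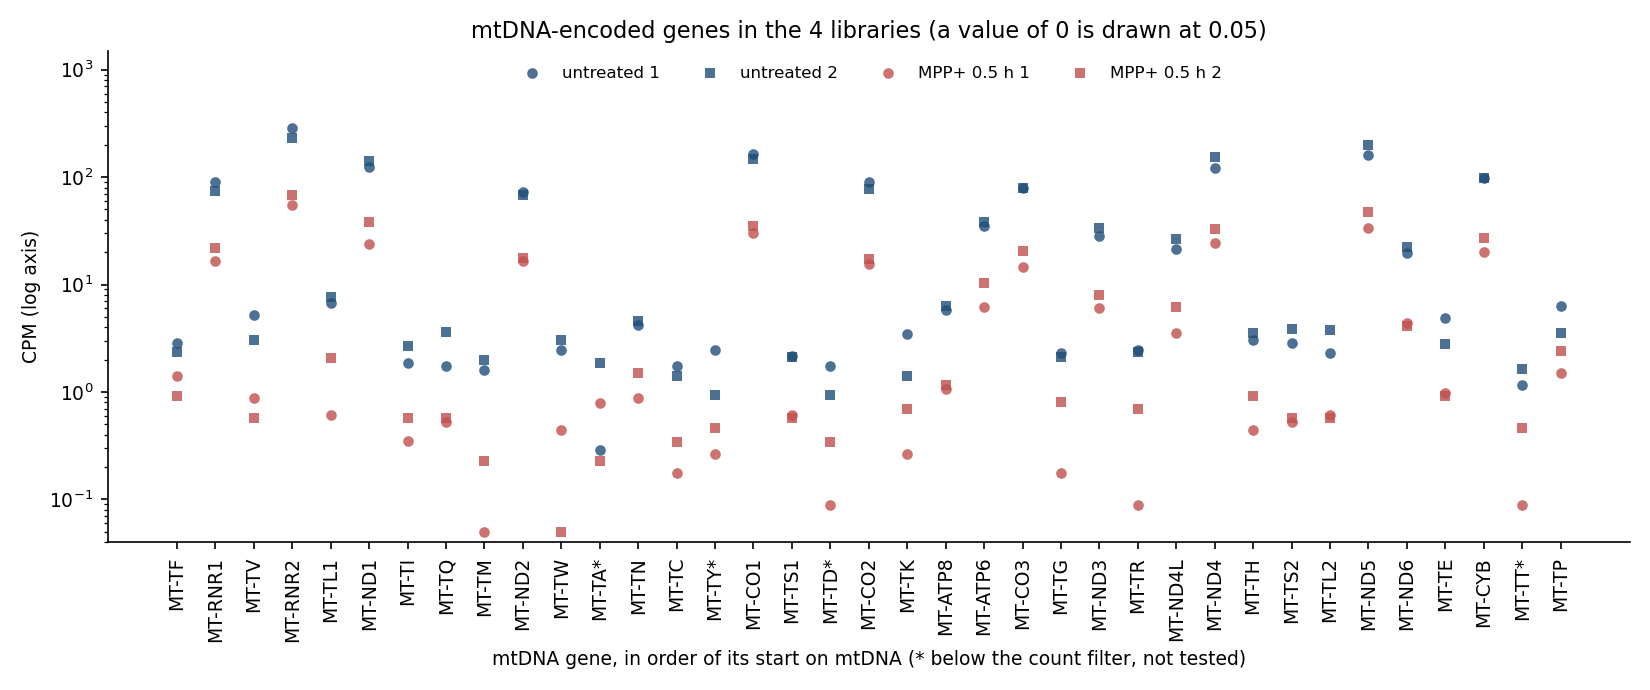
CPM of each of the 37 mtDNA genes on a log axis in the 4 libraries, in the order of the genes on mtDNA. Blue marks the 2 untreated and red the 2 exposed libraries, and the groups are separate at every gene except MT-TA, which was not tested. Of all tested genes, 14.4% were lower in both exposed libraries. Of the 18 tested tRNA genes, 15 reached the count filter only through the untreated libraries, which favours such separation.

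The tRNA genes separate most of the other mtDNA genes and are short, so their counts were small. Those of 2 tRNA genes are shown because they stand at the ends of the rRNA unit. MT-TF, the phenylalanine tRNA gene, is the first gene after the heavy-strand promoter, and MT-TL1, a leucine tRNA gene after MT-RNR2, contains the known binding site of the termination factor MTERF1. The sequences are given 5′ to 3′ in lower case, from GENCODE transcripts on GRCh38.
MT-TF, chrM:577-647, plus strand: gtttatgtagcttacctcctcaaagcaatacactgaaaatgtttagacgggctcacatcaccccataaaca
MT-TL1, chrM:3230-3304, plus strand: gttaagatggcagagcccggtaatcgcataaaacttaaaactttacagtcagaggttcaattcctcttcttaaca

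MT-TF had 20 and 20 counts in the untreated libraries and 16 and 8 counts at 0.5 h, or 2.89 and 2.35 CPM against 1.41 and 0.92 CPM. Its log2 fold change of -1.12 (SE 0.53) was the nearest to 0 of all tested mtDNA genes, with an interval from -2.31 to 0.07 that also includes the median of the mRNAs. MT-TL1 had 47 and 65 counts against 7 and 18 counts (log2 fold change -2.50, SE 0.44, edgeR adjusted p = 0.154). MT-TP, the proline tRNA gene near the start of the light-strand precursor, had 44 and 30 counts against 17 and 21 counts (log2 fold change -1.34, SE 0.41). The difference between these genes and the others was not tested.

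Of 22 tRNA genes 18 were tested and 0 were called. Of these 18, 15 reached the count filter only through the untreated libraries, so their separate values carry little information. MT-TM, the methionine tRNA gene, is such a case, with 11 and 17 counts in untreated cells and 0 and 2 counts at 0.5 h. The genes below the filter were MT-TA, MT-TD, MT-TT and MT-TY. Without any filter, all 22 tRNA genes together had 443 and 522 counts in untreated cells and 133 and 143 counts at 0.5 h, or 63.9 and 61.2 CPM against 11.7 and 16.4 CPM. That is a 4.45-fold lower level, next to 4.46-fold for the 15 rRNA and mRNA genes summed in the same way. The 14 heavy-strand tRNA genes were 5.22-fold lower and the 8 light-strand ones 3.51-fold lower.

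The make-up of the mtDNA counts hardly moved while their total dropped. The rRNA genes held 25.8% and 21.02% of mtDNA counts in untreated cells and 25.1% and 24.3% at 0.5 h, and the heavy-strand mRNAs held 68.5% and 73.3% against 69.2% and 70.2%. For both classes the exposed libraries lay between the untreated ones (exact permutation p = 1). Heavy-strand tRNA genes held 2.74% and 2.76% in untreated cells and 2.109% and 2.53% at 0.5 h. The light-strand genes held 2.95% and 2.96% against 3.57% and 2.99%. In these last 2 classes the groups did not overlap, with exact permutation p = 0.333, the smallest possible, and the counting interval of the light-strand share in 0.5 h replicate 1, from 2.95% to 4.27%, reaches the untreated values.

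Levels per length were ordered much alike in both groups. Per kilobase of gene, MT-RNR2 was highest of the 15 rRNA and mRNA genes in both groups, at 167 CPM per kb in untreated cells and 39.5 at 0.5 h, followed by MT-ND1 at 139 and 32.4 and MT-CO2 at 123 and 24.1. Of the same genes MT-ATP8 was lowest, at 29.2 and 5.33 CPM per kb, and MT-ND6 next, at 39.8 and 8.14. Across these 15 genes the 2 profiles had a Spearman correlation of 0.975 and a Pearson correlation of 0.989 on the log2 scale. Genes far from the heavy-strand promoter did not fall visibly more than those near it: across the 14 heavy-strand rRNA and mRNA genes, distance from the start of MT-TF and log2 fold change had a Spearman correlation of -0.244. These are correlations across genes that share libraries and a precursor, given as descriptions only.

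The mtDNA share of counts was low at 24 h too, at 0.0334% and 0.0290%, within the range of the 0.5 h libraries. The rRNA genes held 25.1% and 24.3% of mtDNA counts at 0.5 h and 18.2% and 19.2% at 24 h. With 2 libraries per group, a lack of calls does not show that the states were equal. In the direct comparison of 24 h with 0.5 h, 0 mtDNA genes and 0 of all tested genes (0%) were called. The rRNA gene MT-RNR1 had 16.6 and 21.8 CPM at 0.5 h and 10.7 and 10.6 CPM at 24 h, a log2 difference of -0.85 (SE 0.19, edgeR adjusted p = 0.754). With the replicate number as a block MT-RNR1 was called (edgeR adjusted p = 0.0153). MT-CYB went from 20.3 and 27.0 CPM to 17.6 and 14.1 CPM (-0.55, SE 0.17, edgeR adjusted p = 0.754). For MT-ND4 the difference was 0.01 (SE 0.17) and for MT-ND2 0.03 (SE 0.14). The median over the 33 genes was 0.15.

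The only other called genes were nuclear copies of mtDNA genes, which are old insertions of mtDNA into chromosomes. The MTRNR2L copies carry the frame of humanin, a small peptide first found within MT-RNR2. Reads from mtDNA can match them where the sequences are the same. The coding parts of 3 copies are shown against the stretch of MT-RNR2 that they match, and a stretch of MTCO1P40, a copy of MT-CO1, against its own. Capitals mark the bases that differ from mtDNA. Each coding part differs at 2 of 75 bases, the stretch of MTCO1P40 at 4 of 120, and the whole of MTCO1P40 at 25 of 625. Positions are on GRCh38.
MT-RNR2, chrM:2633-2707, plus strand: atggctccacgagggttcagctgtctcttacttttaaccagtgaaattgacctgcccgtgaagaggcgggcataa
MTRNR2L8, chr11:10508152-10508226, minus strand: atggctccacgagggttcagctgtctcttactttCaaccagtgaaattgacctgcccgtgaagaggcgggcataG
MTRNR2L12, chr3:96617199-96617273, minus strand: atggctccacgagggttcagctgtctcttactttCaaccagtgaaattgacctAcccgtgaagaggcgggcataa
MTRNR2L1, chr17:22524062-22524136, plus strand: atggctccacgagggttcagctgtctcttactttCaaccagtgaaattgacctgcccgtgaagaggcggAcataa
MT-CO1, chrM:7071-7190, plus strand: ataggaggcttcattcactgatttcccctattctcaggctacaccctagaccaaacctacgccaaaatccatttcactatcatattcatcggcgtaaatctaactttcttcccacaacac
MTCO1P40, chr17:53105986-53106105, plus strand: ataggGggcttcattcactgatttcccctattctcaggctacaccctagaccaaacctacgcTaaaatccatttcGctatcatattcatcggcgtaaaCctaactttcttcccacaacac

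MTRNR2L8 had 24.7 and 20.3 CPM in untreated cells and 5.81 and 5.52 CPM at 0.5 h (log2 fold change -1.98, SE 0.20, edgeR adjusted p = 0.00598). At 0.5 h MTRNR2L1 had only 9 and 5 counts, below the level of the count filter in both libraries. It had 6.93 and 4.93 CPM in untreated cells against 0.793 and 0.575 CPM at 0.5 h (-3.05, SE 0.41, edgeR adjusted p = 0.0145). The calls on both of them ended when either 0.5 h library was left out. MTRNR2L12, with 29.3 and 19.9 CPM against 5.46 and 5.63 CPM, and MTCO1P40, with 10.2 and 12.4 CPM against 1.59 and 1.61 CPM, had edgeR adjusted p-values of 0.0834 and 0.0902. The longest stretch without a difference from mtDNA was 99 bases in MTRNR2L12, 88 in MTRNR2L8, 60 in MTRNR2L1 and 56 in MTCO1P40.

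The copies divided by whether they hold a run of 30 bases identical to an mtDNA gene. Of the 417 copies, 57 hold such a run, and together they had 784 and 804 counts in untreated cells and 224 and 201 counts at 0.5 h, a 4.84-fold lower CPM. The other 360 copies had 211 and 215 counts against 276 and 184 counts, a 1.22-fold lower CPM. Among the 20 tested copies, the 14 with a run lay between -3.58 and -1.62 on the log2 scale and the 6 without one between -0.66 and 0.16. Of those 14, 8 passed the filter only through the untreated libraries. With a run of 20, 25 or 40 bases in place of 30, the ranges of copies with and without a run overlapped. The counting of reads with several equal matches is not given in the sources used here, so whether the values of these copies are their own transcription or that of mtDNA cannot be told apart.

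**Figure D3:**
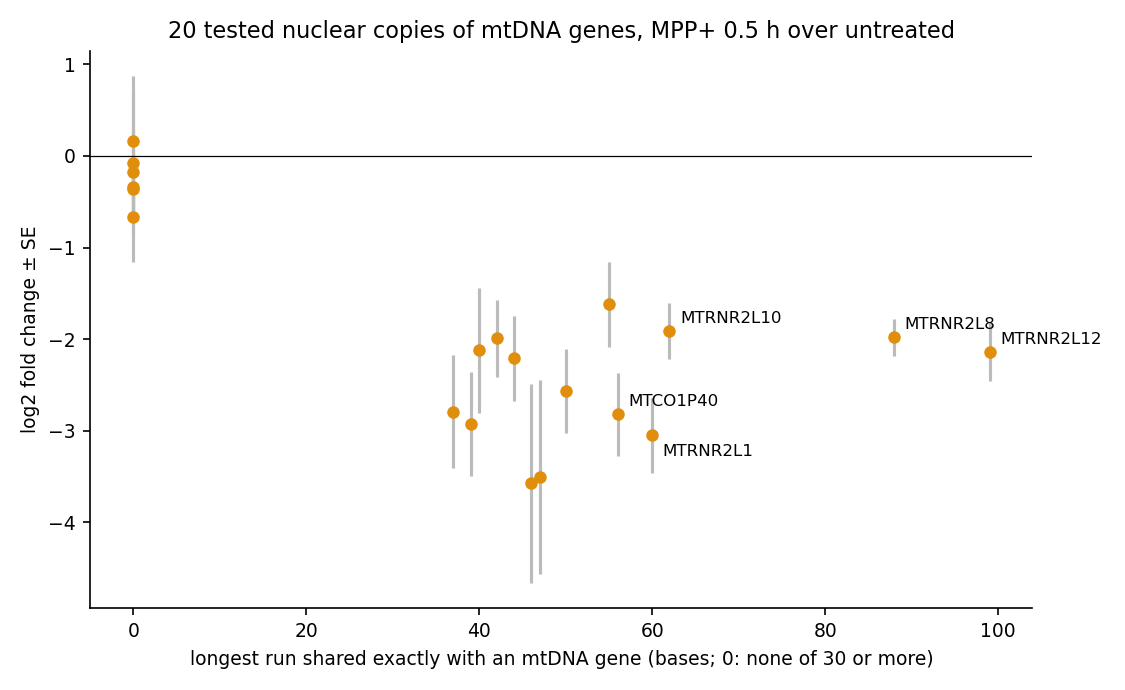
Log2 fold change with its SE (vertical axis) for the 20 tested nuclear copies of mtDNA genes against the longest run of bases identical to an mtDNA gene (horizontal axis, 0 where no run reaches 30 bases). The 14 copies with such a run lie at or below -1.62, and the 6 without one lie between -0.66 and 0.16.

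The authors' deposited table for this comparison lists 17 genes, of which 14 are on mtDNA and 3 are the copies MTRNR2L12, MTRNR2L8 and MTCO1P40. It shares 15 genes with the 17 called here. MT-ATP8 and MTRNR2L1 were called only here, and MTRNR2L12 and MTCO1P40 are only in the authors' deposited table. The log2 fold changes in the authors' deposited table run from 0.63 to 1.43 and are of untreated over exposed cells, as read from the counts. They are smaller in size than those computed here, for instance 1.43 in the authors' deposited table against 2.26 here for MT-CO1.

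No gene of the nuclear genome, apart from the copies, was called in either direction at 0.5 h. DESeq2 called 0 nuclear genes as well. At an unadjusted p under 0.05, 242 of the 23080 nuclear genes were higher (1.05%) and 280 were lower (1.21%), and the smallest adjusted p was 0.516. The median log2 fold change was 0.01, and the 5th and 95th percentiles were -0.41 and 0.37. For 18847 nuclear genes (81.7%) the 95% interval lay within 1 on either side of 0, so that a doubling or halving was outside it. That share was 89.8% for protein-coding genes, 99.6% among the 5770 nuclear genes with the highest CPM and 35.8% among the 5770 with the lowest. With no filter on low counts, 23 nuclear genes were called, 20 of them higher. With the replicate number as a block, 21 were called, 15 of them higher, with FOS, RNY3 and RPLP1 as the list members. At an unadjusted p under 0.05, the edgeR fit with that block had 1015 nuclear genes higher and 713 lower.

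The genes with the smallest unadjusted p in each direction were of several kinds, and none passed the test. SNORD62B, a small nucleolar RNA, had 1.44 and 2.81 CPM in untreated cells and 6.34 and 6.32 CPM at 0.5 h (log2 fold change 1.53, SE 0.33). RNU1-18P, a copy of the U1 spliceosomal RNA, had 8.23 and 11.4 CPM against 17.97 and 18.5 CPM. The U4 gene RNU4-2 had 63.1 and 60.4 CPM against 84.5 and 75.4 CPM. HSPB1, a small heat shock protein, had 27.7 and 34.4 CPM against 45.6 and 42.8 CPM (log2 fold change 0.51, SE 0.13). These 4 genes were higher in both exposed libraries than in both untreated ones, as were 13% of nuclear genes. On the lower side, P2RX2, an ATP-gated ion channel, had 35.9 and 32.3 CPM against 25.3 and 19.7 CPM (log2 fold change -0.59, SE 0.17). LDHD, a mitochondrial D-lactate dehydrogenase, had 35.8 and 31.1 CPM against 24.3 and 22.8 CPM. GPSM1, a regulator of G-protein signalling, had 178 and 152 CPM against 134 and 116 CPM. DUSP2, a phosphatase of MAP kinases, had only 2.45 and 1.64 CPM against 0.705 and 0.805 CPM.

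The nuclear genes that serve mtDNA were examined as lists. Of 12 genes of mitochondrial transcription 11 were tested, 0 were called, and their median log2 fold change was 0.06 beside 0.01 for all nuclear genes. POLRMT, the mitochondrial RNA polymerase, had 28.6 and 34.4 CPM in untreated cells and 26.8 and 26.8 CPM at 0.5 h (log2 fold change -0.24, SE 0.16). TFAM, which bends the promoter and packages mtDNA, averaged 48.7 CPM in untreated cells and 53.01 CPM at 0.5 h (0.12, SE 0.10), with both exposed libraries above both untreated ones. TFB2M, which opens the promoter, was at -0.02 (SE 0.14) and TEFM, the elongation factor, at 0.22 (SE 0.15). The MTERF family members MTERF4 and MTERF3 were at 0.35 (SE 0.15) and 0.28 (SE 0.15). The 95% intervals of all 11 tested members lay within 1 on either side of 0. None of these genes thus showed a change of the size seen in the mtDNA genes.

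Other mitochondrial lists had no member called either. Of 37 nuclear complex I subunits 32 were tested, with 0 called, 24 above 0 and a median of 0.09. NDUFA5 had 36.7 and 31.5 CPM in untreated cells and 41.0 and 41.8 CPM at 0.5 h, while NDUFS3, a core subunit of the peripheral arm, had 36.7 and 35.7 CPM against 31.0 and 30.7 CPM. The 29 tested subunits of complexes II to V had a median of 0.08, and the 63 tested mitochondrial ribosomal proteins also one of 0.08. Of these 63, 46 were above 0. In both exposed libraries 21 of the 63 were higher than in both untreated ones, beside 13% of nuclear genes, and 4 were lower, beside 14.3%. The list was not tested as a set. In the last list MRPL4, a protein of the large subunit, had 8.95 and 8.56 CPM against 12.8 and 14.3 CPM (log2 fold change 0.62, SE 0.19). Factors of mtDNA replication and nucleotide supply had a median of -0.01 over 17 tested genes. Mitochondrial RNA processing and decay had 0.04 over 21, and import, chaperones and proteases -0.01 over 21. Among 13 regulators of biogenesis, PPARGC1A, the coactivator PGC-1alpha, had 3.75 and 3.99 CPM against 2.73 and 3.10 CPM (-0.42, SE 0.28).

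**Figure D4:**
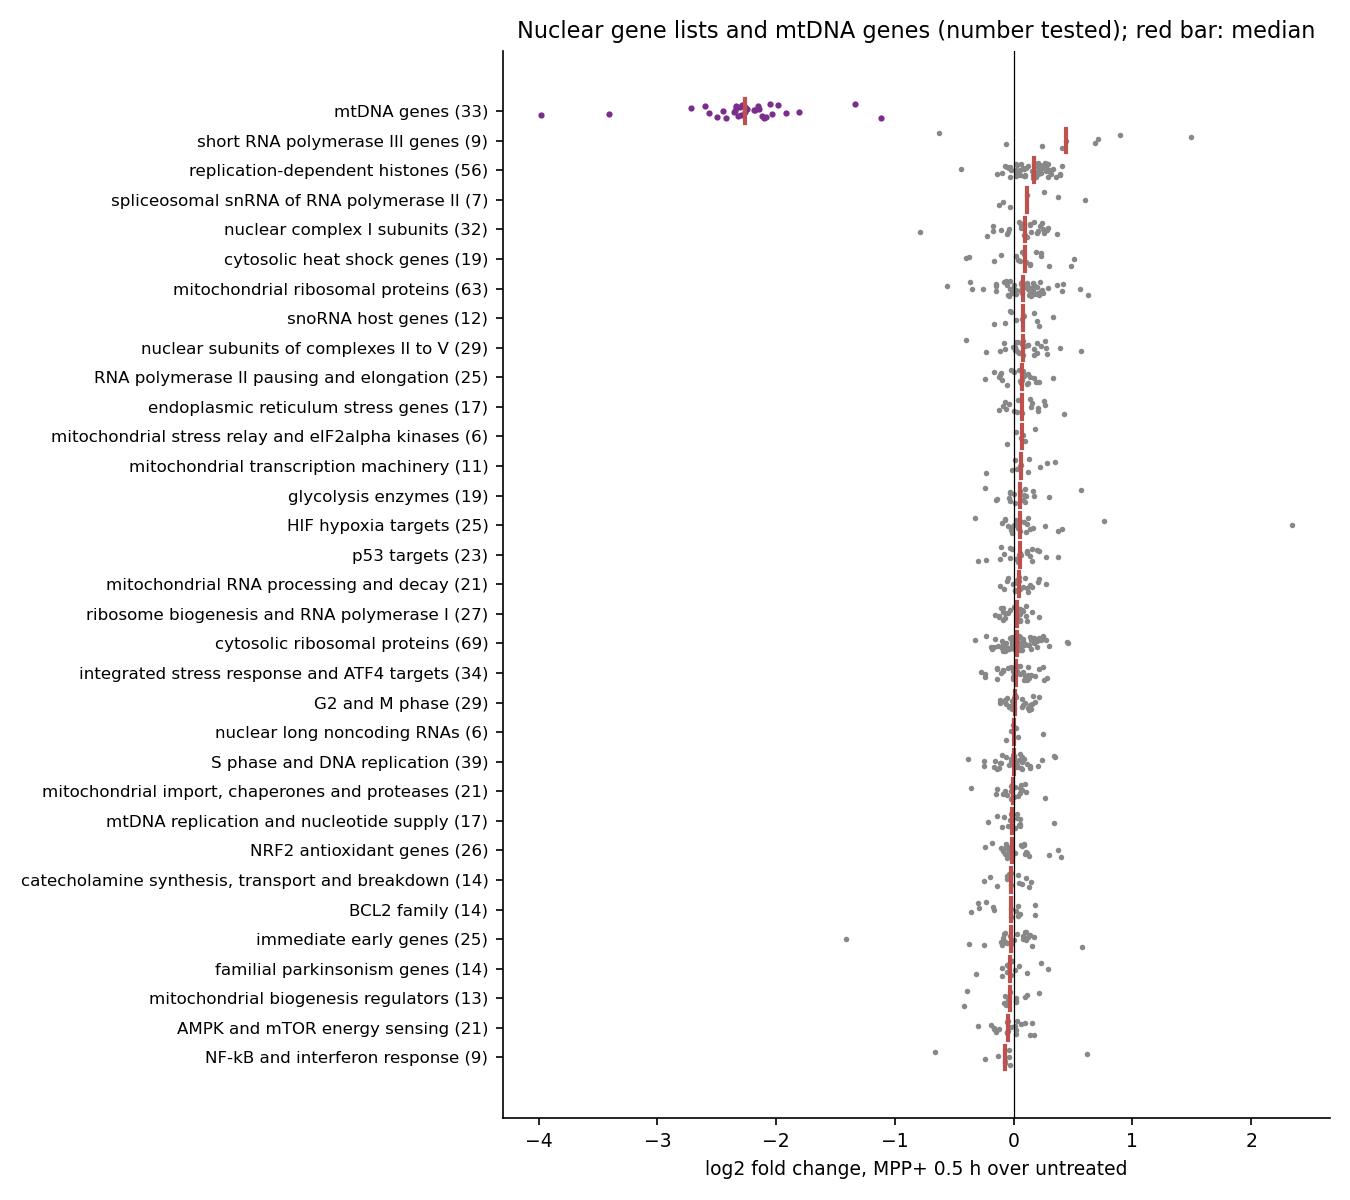
Log2 fold change of 0.5 h over untreated (horizontal axis) for each tested member of 32 nuclear gene lists (grey points) and of the 33 tested mtDNA genes (purple), with the median of each as a red bar and the number tested in brackets. Of the 32 nuclear medians 29 lie between -0.1 and 0.1, and the mtDNA median is -2.27. The purple points include 15 tRNA genes that reached the count filter only through the untreated libraries. The median of the 14 heavy-strand mRNA and rRNA genes is -2.17.

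Across all 32 nuclear lists, with 740 distinct tested members, 0 members were called in either direction (0% of nuclear genes), and the medians ran from -0.07 to 0.44. Early responders gave no common shift. Of 35 immediate early genes 25 were tested, with 12 above 0 and 13 below 0. FOS, part of the AP-1 factor and induced within minutes by many stimuli, had 56.0 and 54.3 CPM in untreated cells and 97.1 and 66.8 CPM at 0.5 h (log2 fold change 0.58, SE 0.21). FOS was higher in both exposed libraries, and most so in replicate 1. EGR1 had 54.4 and 32.8 CPM against 43.1 and 23.2 CPM, NR4A1 had 50.5 and 54.8 CPM against 53.1 and 52.5 CPM, and JUN had 114 and 71.0 CPM against 96.0 and 58.4 CPM. In EGR1 and JUN the libraries numbered 1 were above those numbered 2 in both groups, so that the groups overlapped, and within each number the exposed library was the lower one.

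Stress pathways that respond to failing mitochondria were also near 0. In the integrated stress response 34 genes were tested, 20 of them above 0, and the median was 0.02. ATF4, its central transcription factor, had 143 and 118 CPM in untreated cells and 171 and 110 CPM at 0.5 h. Its targets CHAC1 and TRIB3 were at 0.18 (SE 0.17) and 0.00 (SE 0.14), and DDIT3, a proapoptotic factor downstream of it, was at 0.25 (SE 0.31). PSPH, an enzyme of serine synthesis, was at 0.28 (SE 0.11), and the amino acid carrier SLC38A2 was at -0.28 (SE 0.11). The relay from mitochondria to this response, with the kinase gene EIF2AK1 at 0.09 (SE 0.10), had a median of 0.07 over 6 tested genes.

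Endoplasmic reticulum stress genes had a median of 0.07 over 17 tested. HSPA5, the chaperone BiP, had 84.7 and 100.04 CPM in untreated cells and 146 and 102 CPM at 0.5 h, so that replicate 1 alone stood clearly above. For 19 tested genes of cytosolic heat shock the median was 0.09. NRF2 antioxidant genes had -0.02 over 26, with the ferritin gene FTH1 at 41.0 and 47.8 CPM against 57.9 and 57.1 CPM and HMOX1, which breaks down haem, at 6.93 and 9.62 CPM against 11.01 and 10.9 CPM. The p53 targets had 0.05 over 23 and the BCL2 family -0.02 over 14. No member of these lists passed the test.

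**Figure D5:**
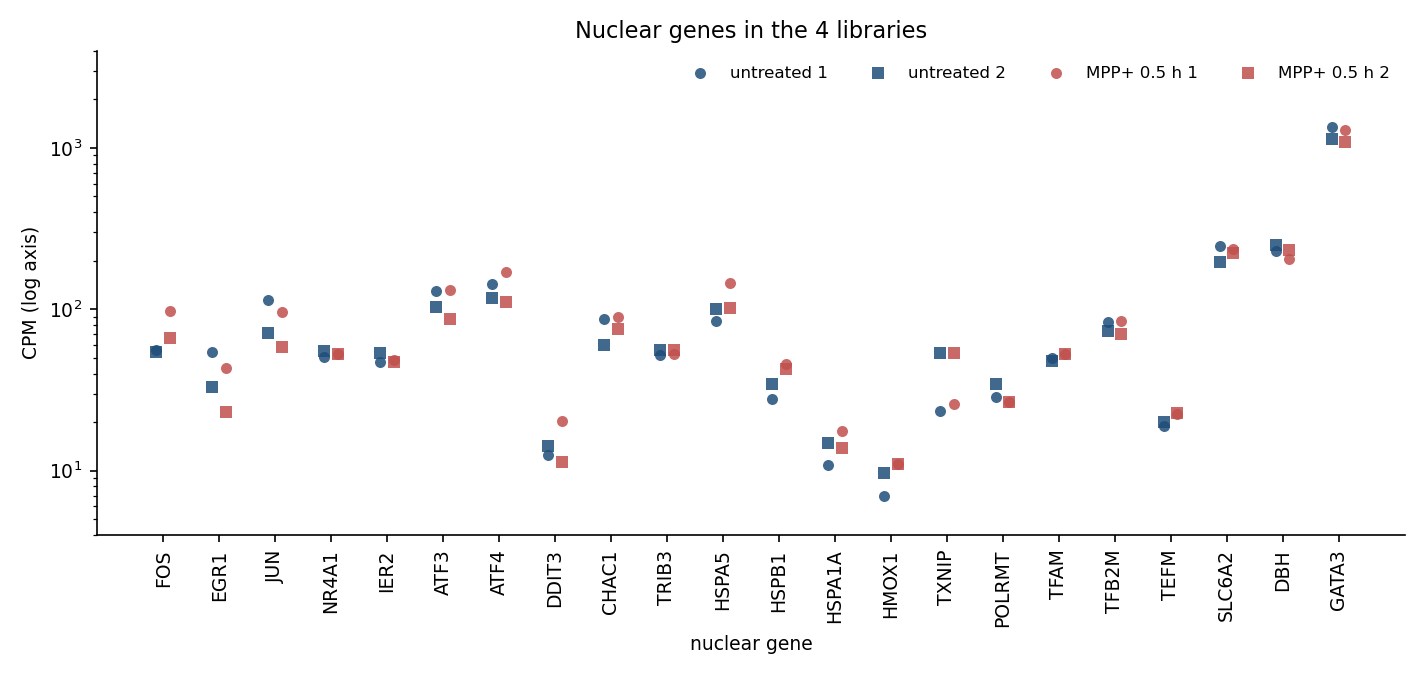
CPM on a log axis of 22 nuclear genes in the 2 untreated libraries (blue) and the 2 libraries exposed for 0.5 h (red). FOS, HSPA5, HSPB1, HMOX1, TFAM and TEFM are higher in both red than in both blue libraries, as are 13% of nuclear genes. POLRMT is lower in both, as are 14.3% of nuclear genes. EGR1, JUN, ATF4 and TXNIP differ more between libraries 1 and 2 of a group than between groups.

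Genes of energy metabolism did not pass the test either. Glycolysis enzymes had a median of 0.06 over 19 tested genes, with GAPDH at 292 and 266 CPM in untreated cells and 387 and 297 CPM at 0.5 h. HIF targets had 0.05 over 25. In that list BHLHE40, a repressor of the circadian clock, had the highest value at 2.35 (SE 0.76), from 0.289 and 0.117 CPM against 0.969 and 1.15 CPM. LOX, which cross-links collagen, had 5.34 and 6.45 CPM against 10.9 and 9.08 CPM (0.76, SE 0.22). TXNIP, which restrains glucose uptake and responds to glycolytic flux, had 23.4 and 53.4 CPM against 25.98 and 53.9 CPM, with the difference between replicates far above that between groups. In the AMPK and mTOR list, TSC2, an inhibitor of mTOR, had 122 and 117 CPM against 96.5 and 97.7 CPM (-0.30, SE 0.09), and the median over 21 tested genes was -0.04.

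Genes of the cell identity and of Parkinson disease stayed near 0. Catecholamine genes had a median of -0.02 over 14 tested, with the vesicular monoamine transporter gene SLC18A2, which sequesters MPP+ in vesicles, at 19.1 and 18.1 CPM in untreated cells and 15.5 and 15.8 CPM at 0.5 h (-0.25, SE 0.20). All 14 familial parkinsonism genes were tested, with a median of -0.03. PINK1, the kinase that marks damaged mitochondria for removal, had 12.1 and 17.2 CPM against 10.7 and 13.1 CPM, and CHCHD2, a protein of the intermembrane space, had 25.4 and 30.8 CPM against 30.9 and 35.5 CPM. The intervals of all 14 catecholamine genes and of 13 of the 14 parkinsonism genes lay within 1 on either side of 0.

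The lists with medians farthest from 0 were those of short or unpolyadenylated RNAs, and 1 library set much of this. The 9 tested of 20 short genes of RNA polymerase III had a median of 0.44. Their summed levels were 50.7 and 34.2 CPM in untreated cells and 91.9 and 36.3 CPM at 0.5 h. RNY3, a Y RNA, had 7.51 and 5.28 CPM against 29.3 and 5.63 CPM. Its log2 fold change was 1.49 (SE 0.78) and became -0.17 without 0.5 h replicate 1. Replication-dependent histones had a median of 0.17, with 47 of 56 tested members above 0. They summed to 10203 and 9155 CPM in untreated cells and 12737 and 8514 CPM at 0.5 h, so that the exposed libraries lay above and below the untreated ones. The snRNAs of RNA polymerase II had a median of 0.11 over 7 tested, with RNU4-1 at 25.0 and 27.1 CPM against 43.9 and 35.1 CPM (0.60, SE 0.18). The 0.5 h replicate 1 library was also the most deeply sequenced, and the part of depth in these values was not tested.

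Genes of growth and division, and of transcription itself, were near 0 as well. Cytosolic ribosomal proteins had a median of 0.03 over 69 tested genes, ribosome biogenesis 0.03 over 27, and factors of RNA polymerase II pausing and elongation 0.07 over 25. S phase genes had 0.01 over 39 tested. G2 and M phase genes had 0.01 over 29, and their values lay between -0.11 and 0.21.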

How the data were processed

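PRO-seq libraries of SH-SY5Y cells were analysed: 2 untreated, 2 exposed to MPP+ for 0.5 h and 2 for 24 h. The submitters' processing notes name hg38, featureCounts 2.0.1, Bowtie2 2.4.2, cutadapt 1.16.5, SAMtools 1.13 and DESeq2 2.11.40.6, with no roles. How strand and multimapping reads were handled is not given in the sources used here. Raw counts per gene fill the deposited count files. The authors' deposited table for 0.5 h holds, per the file headers, log2 fold changes, standard errors, a Wald statistic (a score), p-values and adjusted p-values, and gene positions. Symbols came from a gene name table (42061 identifiers) and GENCODE 29 (769), and 24221 identifiers stayed without one (clone names count as none).

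Counts were filtered with filterByExpr (about 10 counts in at least 2 libraries), scaled by TMM and fitted by group on all 6 libraries with edgeR 4.0.16, quasi-likelihood F test, two-sided, Benjamini-Hochberg over 23133 genes, threshold 0.05, with 3 residual degrees of freedom and a biological coefficient of variation of 0.113. The fit was tested on simulated data. Replicates differed by more than counting noise (chi-square per degree of freedom 4.13 to 8.97). Named genes were the tested mtDNA genes, called genes, the 10 nuclear genes of smallest p on each side of 0, up to 3 members of smallest p per list and the 6 copies of highest CPM. Others (among them TFAM, TFB2M, TEFM, EGR1, JUN, NR4A1, ATF4, CHAC1, TRIB3, DDIT3, TXNIP, SLC6A2, SLC6A3, TH, GATA3, TBX2, TWIST1, SNAP25, EPCAM, CD68 and KRT5) were chosen by name, outside the rule, after values were seen. Members and lists were chosen with earlier results of these data known. Alternatives were DESeq2 1.42.0, other scalings and filters, the 4 libraries alone, the replicate number as a block, and leaving out each library. The length of the shared run in nuclear copies was varied after seeing the data.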

Additional observations from a re-analysis of the deposited data

How the results depend on the processing

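The median log2 fold change of the mtDNA genes lay between -2.44 and -1.95 with 1 library left out, and no mtDNA gene changed sign under any alternative run. Of the 33 tested mtDNA genes, 15 are tRNA genes that reached the count filter only through the untreated libraries. That filter favours low values at 0.5 h in them. Without 1 library, 9 to 19 genes were called lower, 9 to 15 of them on mtDNA, and 0 nuclear genes or list members were called. Calls were most sensitive to 2 choices. Without the count filter, 46 genes were lower and 20 higher, 30 on mtDNA and 23 other nuclear genes, 3 of these list members. The replicate numbers rest on 2 pairs per comparison and were not shown to pair the samples, although deviations of same-numbered libraries correlated (r of 0.33 between untreated and 0.5 h). With the replicate block, 42 genes were lower and 15 higher, 26 on mtDNA and 21 other nuclear genes, 3 of these list members (FOS, RNY3 and RPLP1), and at 24 h against 0.5 h 1 mtDNA gene was called, MT-RNR1. The cause was not tested.

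With 1 library left out, the fold of the mtDNA share was 3.94 to 5.31. The rRNA share difference ranged from -1.15 to 3.67 percentage points and that of heavy-strand mRNAs from -3.55 to 1.24, both changing sign. Sign changes were looked for only among the nuclear genes and copies named by the rule. Genes chosen only by name, among them ATF4, DDIT3 and TXNIP, were not in this check. Those that changed sign in it had these log2 ranges: ADM -0.0262 to 0.67, CSF1R -0.17 to 0.049, FEN1 -0.0315 to 0.77, HAND2 -0.54 to 0.11, MALAT1 -0.21 to 0.0782, MYCN -0.49 to 0.0061, NEAT1 -0.13 to 0.20, PARK7 -0.0624 to 0.30, PMAIP1 -0.47 to 0.0403, PTPRC -0.0036 to 0.30, RNY3 -0.17 to 2.21, RPS2 -0.0317 to 0.81 and SNHG12 -0.0518 to 0.63.

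With a shared run of 20, 25 or 40 bases in place of 30, 17, 15 or 12 of the 20 tested copies hold one. At 20 and at 25 bases, 14 copies with a run lie below -1, and the highest copy with a run is at 0.16. At 40 bases the lowest copy without a run is at -2.93. Small counts limit the tRNA genes, and a count of 0 allows up to 2.56e-05% to 4.26e-05% of a library in the 4 libraries compared.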
